A study of Homo sapiens with 6 samples.

Results

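The endoplasmic reticulum (ER) genes described here are 40 genes of protein folding, the unfolded protein response and ER-associated degradation (ERAD), taken from the deposited expression table by gene name. All 40 names matched 1 row each of the 58174 genes in the table, and all are protein-coding. The tested samples were 3 libraries of cells labelled Huh-7 that were transfected with miR-27a-3p mimics, and their comparison samples were 3 libraries of the same cells transfected with a negative control (NC). Huh-7 is a long-used line derived from a human liver tumour, both groups were cultured and transfected alike with a lipid reagent, and RNA was taken 48 h after transfection. A mimic is a synthetic RNA duplex that imitates the mature microRNA. The series asks how this microRNA bears on cisplatin sensitivity, and the labels name no cisplatin treatment. Whether the 3 samples of a group were separate cultures is not stated, so p-values reflect sample-to-sample spread only, and that spread may be technical.

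Secreted and membrane proteins enter the ER through the SEC61 channel, are folded there by chaperones such as HSPA5 (BiP), by lectin chaperones that hold glycoproteins and by protein disulfide isomerases, and are sent back to the cytosol for degradation when folding fails. Unfolded protein is sensed by IRE1 (the product of ERN1), PERK (EIF2AK3) and ATF6. IRE1 splices XBP1 mRNA, PERK phosphorylates eIF2alpha, and ATF6 is cut by the MBTPS1 and MBTPS2 proteases in the Golgi; together they raise chaperone and ERAD genes. Hepatocytes carry a heavy load of secreted protein and depend on this machinery. Gene-level FPKM cannot show XBP1 splicing, PERK phosphorylation or ATF6 cleavage.

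The transfected microRNA recognises targets mainly through its seed, bases 2 to 8, which are in capitals here and to which the matches in the members below are set. The RefSeq sequence (GRCh38.p14) is:
hsa-miR-27a-3p: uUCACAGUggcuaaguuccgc

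ATF6 with NF-Y is known to act through the ER stress response element, CCAAT followed after any 9 bases by CCACG, and through its shorter form ERSE-II, ATTGG followed after any 1 base by CCACG. Both were searched on both strands in RefSeq promoters (GRCh38.p14, 250 bases before to 50 after the gene start), of which 37 members had one. The long element was in 6 of 37 member promoters (16.2%), those of HSPA5, HSP90B1, CANX, CALR, CRELD2 and XBP1, against 22 of 27305 promoters of all genes (0.0806%). ERSE-II was in 3 of 37, those of HYOU1, SDF2L1 and HERPUD1, against 0.0549% of all. The members were picked as genes of this response and are included among all promoters. These shares therefore describe the list and test nothing. The promoters of 5 chaperone genes compared below are shown 5' to 3' on the gene's strand with the elements in capitals. CANX, CALR, HSP90B1 and HSPA5 carry the long element, and HYOU1 carries ERSE-II.
CANX promoter, chr5:179698679-179698978, plus strand: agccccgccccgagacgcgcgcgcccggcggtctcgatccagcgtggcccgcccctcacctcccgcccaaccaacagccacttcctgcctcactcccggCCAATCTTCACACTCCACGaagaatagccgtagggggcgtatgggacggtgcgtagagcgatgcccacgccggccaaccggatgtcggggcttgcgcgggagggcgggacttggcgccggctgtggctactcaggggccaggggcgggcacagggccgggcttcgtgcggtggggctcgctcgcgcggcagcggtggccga
CALR promoter, chr19:12938359-12938658, plus strand: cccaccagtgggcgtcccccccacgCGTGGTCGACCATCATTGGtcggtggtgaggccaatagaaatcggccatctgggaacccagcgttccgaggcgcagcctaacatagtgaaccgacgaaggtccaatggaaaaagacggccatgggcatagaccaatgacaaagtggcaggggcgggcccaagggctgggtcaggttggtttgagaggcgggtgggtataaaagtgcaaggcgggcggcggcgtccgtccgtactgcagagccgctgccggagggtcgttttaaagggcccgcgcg
HYOU1 promoter, chr11:119057156-119057455, minus strand: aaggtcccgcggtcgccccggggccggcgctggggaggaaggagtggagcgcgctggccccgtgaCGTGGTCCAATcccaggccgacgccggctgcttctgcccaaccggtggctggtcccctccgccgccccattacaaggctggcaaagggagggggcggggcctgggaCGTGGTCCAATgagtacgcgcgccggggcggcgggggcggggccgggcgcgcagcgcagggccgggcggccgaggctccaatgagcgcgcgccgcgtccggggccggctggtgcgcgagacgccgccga
HSP90B1 promoter, chr12:103930160-103930459, plus strand: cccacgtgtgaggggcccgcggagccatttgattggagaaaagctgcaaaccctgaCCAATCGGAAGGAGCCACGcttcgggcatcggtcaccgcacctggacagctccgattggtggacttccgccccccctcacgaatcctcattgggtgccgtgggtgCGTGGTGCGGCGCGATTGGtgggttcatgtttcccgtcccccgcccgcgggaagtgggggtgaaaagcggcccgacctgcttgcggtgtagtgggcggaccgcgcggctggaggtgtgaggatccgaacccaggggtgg
HSPA5 promoter, chr9:125241294-125241593, minus strand: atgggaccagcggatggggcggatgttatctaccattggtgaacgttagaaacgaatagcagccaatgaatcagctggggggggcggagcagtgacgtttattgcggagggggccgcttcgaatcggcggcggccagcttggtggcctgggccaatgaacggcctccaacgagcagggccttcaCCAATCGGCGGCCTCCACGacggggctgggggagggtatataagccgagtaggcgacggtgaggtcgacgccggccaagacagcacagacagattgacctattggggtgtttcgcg
The HSPA5 element starts 66 bases before the RefSeq gene start and the CANX element 151 bases before its own, both in the orientation of the gene. For CANX this RefSeq start lies inside the gene span listed with the FPKM values, which begins at chr5:179678628. The HSP90B1 promoter shown also lies inside its listed span, which begins at chr12:103930107. Sequence around those outer starts was not searched. HYOU1 holds the same ERSE-II site at 185 and at 79 bases before the start, in the opposite orientation, and HSP90B1 holds an element in each orientation. A shorter core, TGACGTGG, known as a site for XBP1 and ATF6, was in 2 member promoters, those of HYOU1, where it overlaps an ERSE-II site, and VCP, against 0.795% of all promoters. A match is a description of these letters and not a shown binding site.

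Expression is given as FPKM, fragments scaled to gene length and library total, so a value is a relative level. Read numbers are not given and could not be recovered from the values, so the depth behind each value is unknown. Mitochondrial genes held 14.6% to 38.9% of summed FPKM in mimic samples and 16.9% to 32.8% in NC samples, with sample 3 highest in both groups. None of 13 hepatocyte markers reached a mean of 1 FPKM: APOA2, APOB and TTR were listed at 0 in all 6 samples, ALB and AFP did not exceed 0.0237 FPKM, and the list summed to 0.930 to 1.27 FPKM in mimic samples and 1.2 to 2.16 FPKM in NC samples. Of 5 simple-epithelium markers, the keratins KRT8, KRT18 and KRT19 reached a mean of 1 FPKM, and EPCAM and CDH1 did not. KRT8 was at 442 to 607 FPKM in mimic samples and 229.5 to 255.6 FPKM in NC samples. EPCAM did not exceed 0.102 FPKM and CDH1 did not exceed 0.219 FPKM in any sample, so this list was split. The data therefore go against a hepatocyte-like label, and the cells are named here by their label only. Markers of basal epithelium, immune cells and endothelium had no gene at a mean of 1 FPKM, and of 5 fibroblast markers COL1A1 alone reached it. In bulk RNA, fewer cells of a kind and less RNA per cell cannot be told apart.

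The 40 genes together made up 0.712%, 0.594% and 0.499% of summed FPKM in mimic samples 1, 2 and 3, against 0.609%, 0.614% and 0.452% in NC samples 1, 2 and 3. These shares overlapped between groups and were lowest in sample 3 of each group, where mitochondrial genes were highest. When the total excluded mitochondrial genes, the shares were 0.833%, 0.784% and 0.817% in mimic samples and 0.733%, 0.752% and 0.673% in NC samples, and no longer overlapped. CANX alone took 7.82%, 9.04% and 7.05% of the module's FPKM in mimic samples, against 2.05%, 2.37% and 2.08% in NC samples. Without CANX the module's share of all FPKM, mitochondrial genes included, was 0.553% ± 0.0967 in mimic samples and 0.546% ± 0.0898 in NC samples (SD, n = 3 each). With CANX the share of this same total was 0.602% ± 0.107 and 0.558% ± 0.0921. The share without CANX was not computed for the total that excluded mitochondrial genes. On this scale, which is per length, P4HB, the beta subunit of prolyl hydroxylase and a disulfide isomerase, was highest and CALR next, 8 genes averaged at least 100 FPKM over the 6 samples, and DERL3 was lowest, listed at 0 in the 3 mimic samples and in NC sample 1 and at 0.0334 and 0.069 FPKM in NC samples 2 and 3.

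**Figure D1:**
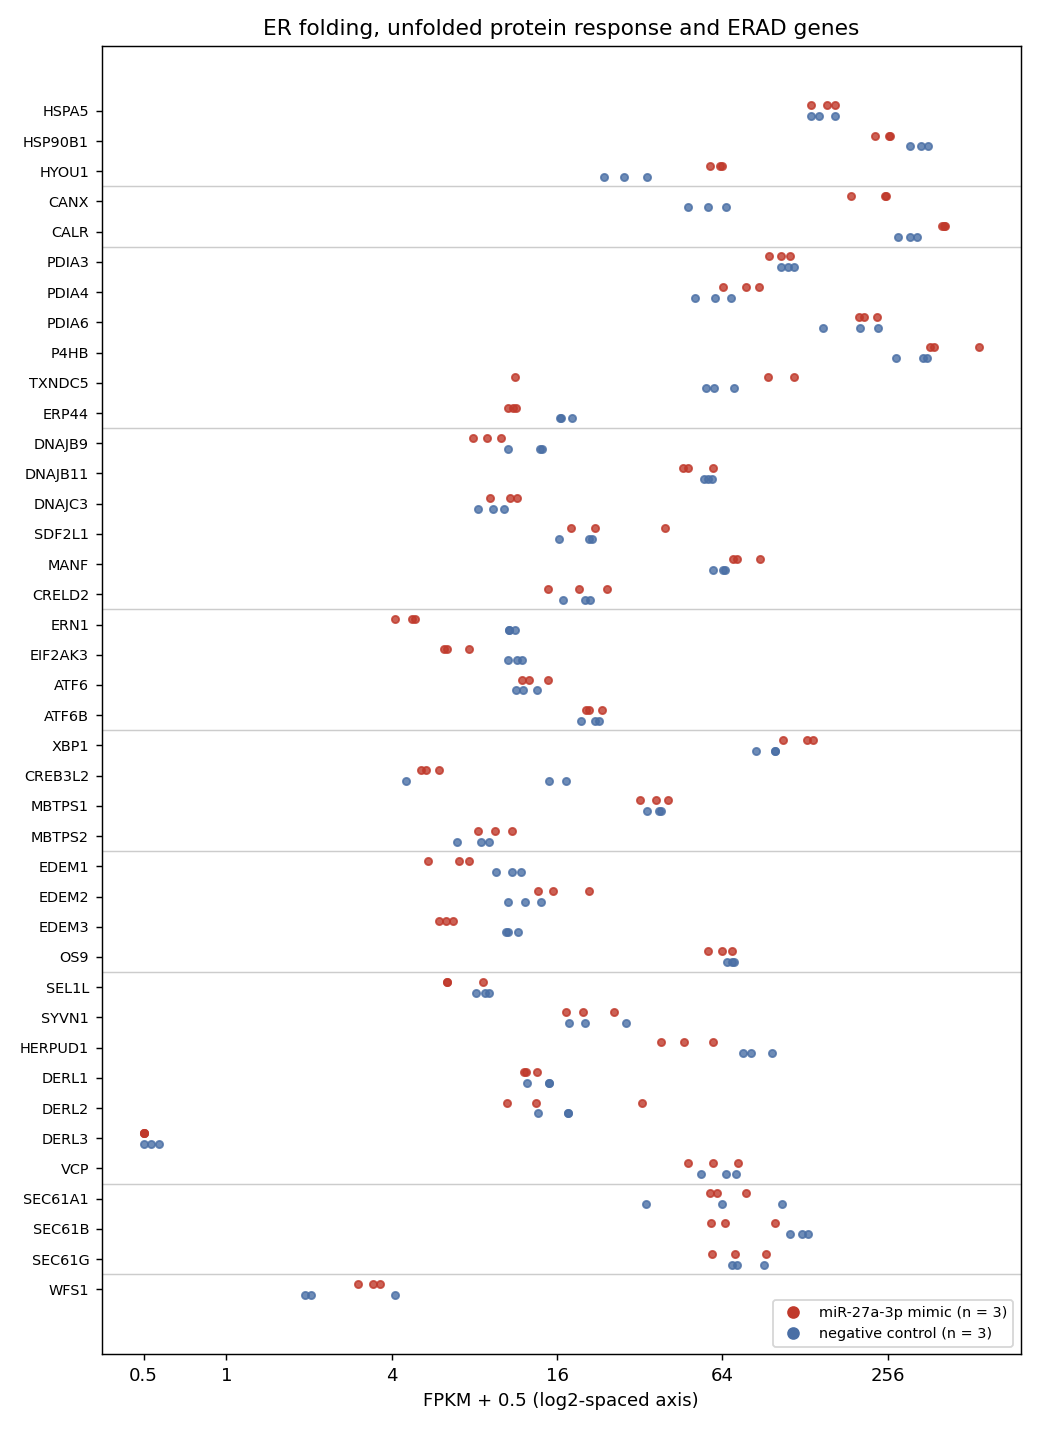
FPKM + 0.5 of the 40 genes on a log2-spaced axis, 1 point per sample, with mimic samples above NC samples in each row and grey lines between the functional groups. CANX and HYOU1 stand to the right in mimic samples, ERN1, EIF2AK3, EDEM1 and EDEM3 to the left, and most other rows overlap.

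Groups were compared with limma on log2(FPKM + 0.5) across the 14439 genes whose mean reached 1 FPKM. DERL3 did not reach it and the other 39 did. At a Benjamini-Hochberg adjusted p below 0.05 over all genes, 3 of the 39 rose in mimic samples (7.69%), and 9 fell (23.1%). Over all genes tested the share called higher was 12.0% and the share called lower 39.6%, so both shares lay below the background, as they did against the 11571 protein-coding genes tested (14.0% higher and 32.7% lower). The median log2 fold change was -0.02 over the 39 and -0.29 over all genes. Whether a small change counts as a rise or a fall depended on the scale. After median-of-ratios scaling, which moves the median of all genes to 0.01, 15 members were called higher and 5 lower (38.5% and 12.8%), against 26.9% and 27.4% of all genes and 31.8% and 20.4% of protein-coding genes. After quantile normalization 8 were higher and 8 lower, against 24.9% and 22.8% of all genes. After correction for GC content and length 15 were higher and 3 lower, against 26.3% and 23.3% of all genes. The groups did not overlap in 15 of the 39 (38.5%), against 60.5% of all genes tested. CANX, HYOU1, ERN1 and EIF2AK3 were called in the same direction in all 20 alternatives run. Counts within the functional groups below are to be read against the 12.0% higher and 39.6% lower of all genes tested. The groups are too small for such counts to be a result about a group.

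**Figure D2:**
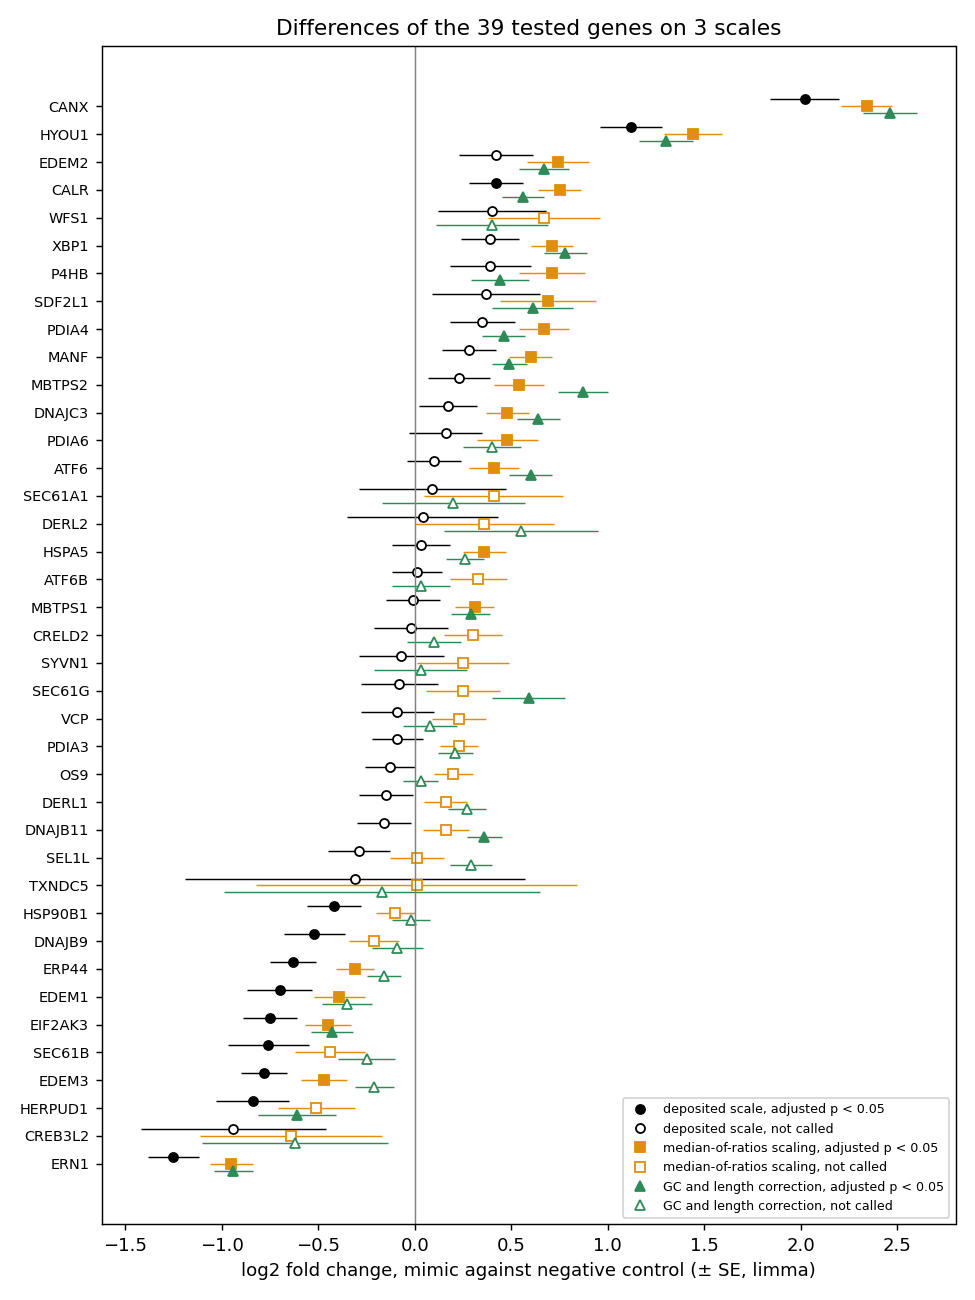
Log2 fold change (mimic against negative control) with its SE for the 39 tested genes on the deposited scale (circles), after median-of-ratios scaling (squares) and after GC and length correction (triangles); filled symbols have an adjusted p below 0.05 by limma. CANX (2.02 on the deposited scale) and HYOU1 (1.12) are filled on the right and ERN1 (-1.25) and EIF2AK3 (-0.75) on the left on all 3 scales, while the middle rows fill mainly on the 2 rescaled ones.

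Among the lectin chaperones, CANX showed the largest difference of the 39. Calnexin, its product, is the membrane-bound lectin that holds newly made glycoproteins. CANX (chr5:179678628-179730925, plus strand, hg38) was at 252, 250.1 and 188 FPKM in mimic samples 1, 2 and 3, against 56.1, 65.5 and 47.5 FPKM in NC samples 1, 2 and 3. Every mimic sample lay far above every NC sample, with a log2 fold change of 2.02 (SE 0.18, limma adjusted p = 9.27e-05). CALR, which encodes the soluble lectin calreticulin, was at 413, 409 and 402 FPKM in mimic samples and 309, 326 and 279 FPKM in NC samples. Its groups did not overlap either, but the rise was smaller (0.42, SE 0.14, adjusted p = 0.0347) and it was not called without mimic sample 2, mimic sample 3 or any 1 of the NC samples, where adjusted p lay between 0.0554 and 0.11. The ratio of CANX to CALR, into which no scaling between samples enters, was 0.611, 0.612 and 0.467 in mimic samples and 0.182, 0.201 and 0.170 in NC samples. This ratio and the others below were chosen after the values were seen.

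Of the HSP70 and HSP90 chaperones, HYOU1 rose, HSP90B1 fell and HSPA5 was not called. HYOU1, a large HSP70-like chaperone of the ER also known as ORP150, was at 62.3, 57.3 and 63.5 FPKM in mimic samples and at 27.7, 33.4 and 23.2 FPKM in NC samples. Its groups were clearly apart (1.12, SE 0.16, adjusted p = 0.000652). HSPA5, the main HSP70 of the ER and the usual marker of the unfolded protein response, was at 165, 153 and 134 FPKM in mimic samples and 144, 164 and 134 FPKM in NC samples. These values overlapped (0.03, SE 0.15, adjusted p = 0.878), and median-of-ratios scaling turned it into a higher call (0.36, adjusted p = 0.0293) but not after GC and length correction (0.26, adjusted p = 0.0703). HSP90B1, the ER paralog of HSP90 (GRP94), was at 258, 261 and 229 FPKM in mimic samples and 337, 359 and 307 FPKM in NC samples. The samples did not overlap (-0.42, SE 0.14, adjusted p = 0.0379), yet the difference was -0.10 after median-of-ratios scaling and -0.02 after GC and length correction, neither called. It was also not called without mimic sample 2, mimic sample 3, NC sample 1 or NC sample 2 (adjusted p between 0.0785 and 0.142). Within samples, HSP90B1 stood at 1.57, 1.70 and 1.72 times HSPA5 in mimic samples and at 2.34, 2.19 and 2.29 times in NC samples. HYOU1 stood at 0.378, 0.374 and 0.475 times HSPA5 in mimic samples and at 0.192, 0.204 and 0.173 times in NC samples. Neither of these ratios overlapped between the groups. The promoters of all 3 genes carry a form of the stress element, and whether it bears on these differences was not tested.

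**Figure D3:**
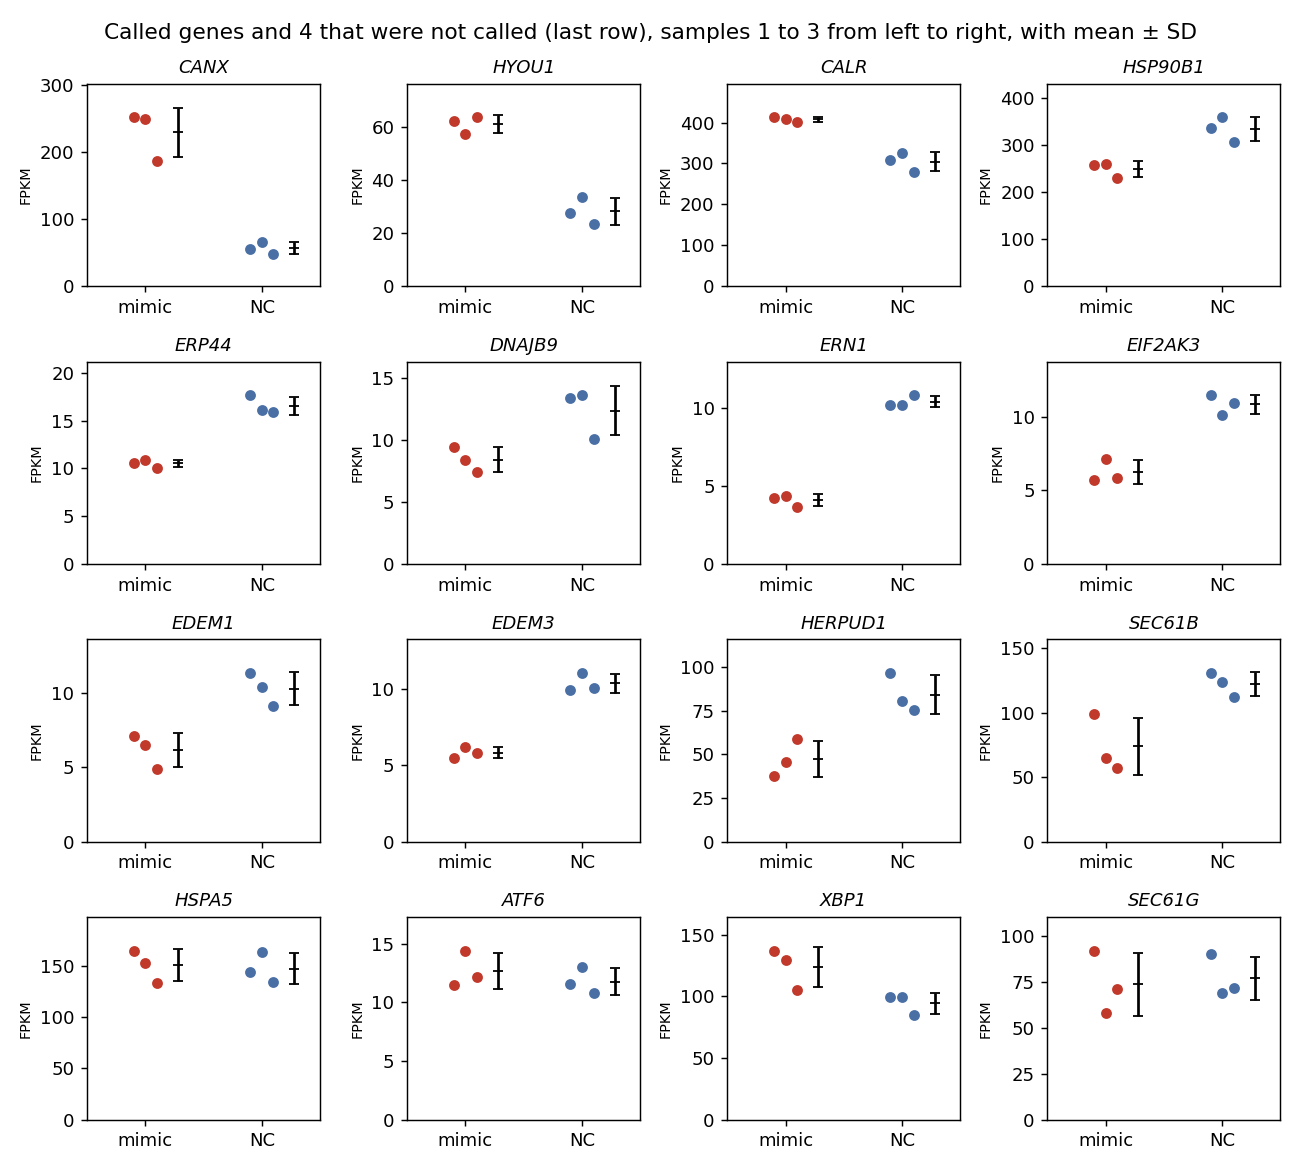
FPKM in each sample (mimic in red, NC in blue, samples 1 to 3 from left to right, bars are mean ± SD) for the 12 called genes and, in the last row, HSPA5, ATF6, XBP1 and SEC61G. The 12 called genes have no overlap between groups; HSPA5, ATF6 and SEC61G overlap, and XBP1 does not overlap but has an adjusted p of 0.0632.

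Of the 6 disulfide isomerases and relatives, 1 fell (16.7%, against 39.6% of all genes tested) and none rose (against 12.0%) on the deposited scale. ERP44, which retains ER oxidoreductases and unassembled secretory proteins in the early secretory pathway, was at 10.6, 10.9 and 10.1 FPKM in mimic samples and 17.7, 16.1 and 15.9 FPKM in NC samples. It fell with little spread in either group (-0.63, SE 0.12, adjusted p = 0.00314), by less after median-of-ratios scaling (-0.31, adjusted p = 0.0307), and was not called after GC and length correction (-0.16, adjusted p = 0.182). P4HB was at 549, 365 and 376 FPKM in mimic samples and 357, 345 and 274 FPKM in NC samples. Mimic sample 1 stood above the others and the groups did not overlap (0.39, SE 0.21, adjusted p = 0.147). PDIA4, another disulfide isomerase, was at 86.5, 77.3 and 64.1 FPKM in mimic samples and 59.6, 68.4 and 50.3 FPKM in NC samples (0.35, adjusted p = 0.116). PDIA6 was at 234, 209 and 200.3 FPKM in mimic samples and 203, 235 and 148 FPKM in NC samples (0.16, adjusted p = 0.514). After median-of-ratios scaling P4HB (0.71, adjusted p = 0.0109), PDIA4 (0.67, adjusted p = 0.00394) and PDIA6 (0.48, adjusted p = 0.0339) were each called higher. PDIA3, which works with calnexin and calreticulin on glycoproteins, ranged from 94.2 to 112 FPKM in mimic samples and from 104 to 116 FPKM in NC samples (-0.09, adjusted p = 0.581), and was called under none of the 20 alternatives. Its pseudogenes PDIA3P1 and PDIA3P2 averaged 4.08 and 1.97 FPKM over the 6 samples, so reads may be shared with them.

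TXNDC5, a disulfide isomerase known as endoPDI, had 1 library far from the others. It was at 117, 10.8 and 93.1 FPKM in mimic samples and 59.2, 70.0 and 55.4 FPKM in NC samples, so mimic sample 2 stood far below its group (-0.31, SE 0.88, adjusted p = 0.791). The annotation also holds BLOC1S5-TXNDC5, a read-through gene on the same strand that contains TXNDC5, and it was at 74.9 FPKM in mimic sample 2 and listed at 0 in the other 5 samples. BLOC1S5 itself ranged from 7.36 to 7.91 FPKM in mimic samples and from 6.52 to 7.93 FPKM in NC samples. The sum of TXNDC5 and the read-through gene was 117, 85.6 and 93.1 FPKM in mimic samples and 59.2, 70.0 and 55.4 FPKM in NC samples. With the sum in place of TXNDC5, the mimic samples all lay above the NC samples and the difference was called higher by limma (0.67, SE 0.16, adjusted p = 0.00955), as it was for TXNDC5 alone without mimic sample 2 (0.76, adjusted p = 0.0162). The sum was formed after the values were seen.

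**Figure D4:**
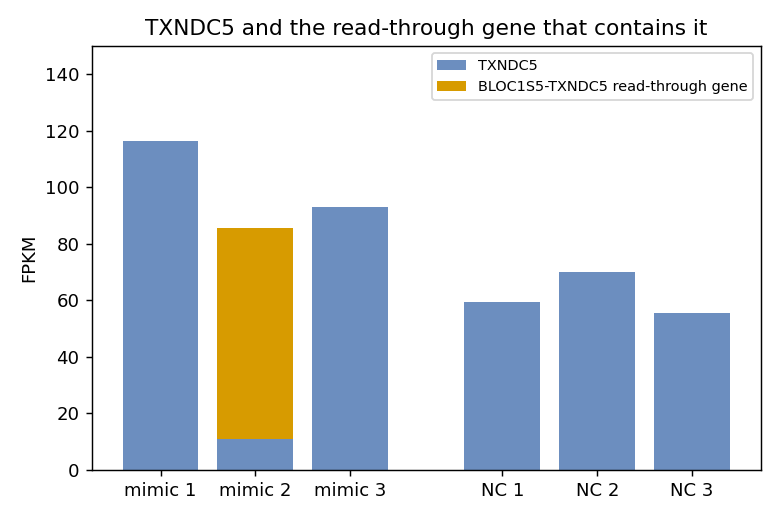
FPKM of TXNDC5 (blue) and of the BLOC1S5-TXNDC5 read-through gene (orange) stacked for each sample, mimic samples on the left. Mimic sample 2 has 10.8 FPKM under TXNDC5 and 74.9 FPKM under the read-through gene, and the other 5 samples are at 0 under the read-through gene.

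Co-chaperones and stress-induced luminal factors gave 1 fall and no rise among 6 on the deposited scale. That is 16.7% lower, against 39.6% lower and 12.0% higher among all genes tested. DNAJB9 (ERdj4), a J-protein that keeps IRE1 inactive and is itself an XBP1 target, was at 9.47, 8.39 and 7.43 FPKM in mimic samples and 13.4, 13.6 and 10.1 FPKM in NC samples. The groups did not overlap and DNAJB9 fell (-0.52, SE 0.16, adjusted p = 0.0262), but it was not called after median-of-ratios scaling (-0.21, adjusted p = 0.186) or GC and length correction (-0.09, adjusted p = 0.603). Nor was it called after quantile normalization (-0.24, adjusted p = 0.162), when low genes were kept in the fit (adjusted p = 0.0544) or without mimic sample 2, mimic sample 3, NC sample 1 or NC sample 2 (adjusted p between 0.0662 and 0.0927). MANF, a secreted protein that stabilises the HSPA5 cycle, was at 87.2, 72.0 and 69.6 FPKM in mimic samples and 64.9, 63.99 and 58.8 FPKM in NC samples, without overlap (0.28, adjusted p = 0.126). DNAJC3 (p58IPK), a J-protein that assists HSPA5, was at 10.3, 10.9 and 8.64 FPKM in mimic samples and 8.88, 9.74 and 7.77 FPKM in NC samples. SDF2L1, which works with the J-protein DNAJB11, was at 39.1, 21.6 and 17.5 FPKM in mimic samples and 20.9, 20.4 and 15.8 FPKM in NC samples, with mimic sample 1 alone far above the rest. After median-of-ratios scaling MANF (0.60, adjusted p = 0.0031), DNAJC3 (0.48, adjusted p = 0.00897) and SDF2L1 (0.69, adjusted p = 0.0494) were called higher. DNAJB11 ranged from 45.7 to 58.9 FPKM in mimic samples and from 54.3 to 58.0 FPKM in NC samples (-0.16, adjusted p = 0.37). CRELD2, a disulfide isomerase-like protein and stress-response gene, averaged 19.0 ± 4.71 FPKM in mimic samples and 18.9 ± 2.26 FPKM in NC samples (SD, n = 3 each; adjusted p = 0.953).

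Of the 4 stress sensors, ERN1 and EIF2AK3 fell (50%, against 39.6% of all genes tested) and the ATF6 pair was not called. ERN1 (chr17:64039142-64130819, minus strand), the gene of the kinase and RNase IRE1, was at 4.24, 4.37 and 3.63 FPKM in mimic samples and 10.2, 10.2 and 10.8 FPKM in NC samples. Both groups were tight and far apart (-1.25, SE 0.13, adjusted p = 0.000171), and the difference held after median-of-ratios scaling (-0.95, adjusted p = 0.00057) and GC and length correction (-0.94, adjusted p = 0.000582). EIF2AK3 (chr2:88556741-88627576, minus strand), the gene of the eIF2alpha kinase PERK, was at 5.72, 7.15 and 5.84 FPKM in mimic samples and 11.45, 10.1 and 10.9 FPKM in NC samples. It also fell (-0.75, SE 0.14, adjusted p = 0.00234), by less after median-of-ratios scaling (-0.45, adjusted p = 0.0185). ATF6, the sensor that becomes a transcription factor on cleavage, was at 11.45, 14.4 and 12.2 FPKM in mimic samples and 11.5, 13.0 and 10.8 FPKM in NC samples. Its values overlapped (0.10, SE 0.14, adjusted p = 0.59), and median-of-ratios scaling made it a higher call (0.41, adjusted p = 0.0274), as did GC and length correction (0.60, adjusted p = 0.00394). ATF6B, its paralog, averaged 21.1 ± 1.6 FPKM in mimic samples and 20.9 ± 1.68 FPKM in NC samples (SD, n = 3 each; adjusted p = 0.953). The ratio of ERN1 to ATF6 was 0.370, 0.304 and 0.299 in mimic samples and 0.882, 0.784 and 0.999 in NC samples, and that of EIF2AK3 to ATF6 was 0.5, 0.498 and 0.480 in mimic samples and 0.994, 0.779 and 1.01 in NC samples. Neither ratio overlapped between the groups, and no scaling between samples enters them. Both were chosen after the values were seen, so they only describe these samples.

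None of the 4 downstream factors and proteases was called on the deposited scale, against 12.0% higher and 39.6% lower among all genes tested. XBP1, which encodes the transcription factor made by IRE1 splicing, was at 137, 129 and 105 FPKM in mimic samples and 99.3, 99.1 and 84.5 FPKM in NC samples. All mimic samples lay above all NC samples (0.39, SE 0.15, adjusted p = 0.0632; 0.0286 without mimic sample 3), and XBP1 passed the threshold once scaled by median of ratios (0.71, adjusted p = 0.00142) or corrected for GC and length (0.78, adjusted p = 0.00142). MBTPS2, the site-2 protease that releases ATF6, was at 8.99, 10.48 and 7.75 FPKM in mimic samples and 7.97, 8.54 and 6.44 FPKM in NC samples (0.23, adjusted p = 0.263). MBTPS1, the site-1 protease that cuts ATF6 first, was at 40.01, 36.1 and 31.7 FPKM in mimic samples and 37.2, 37.9 and 33.5 FPKM in NC samples (-0.01, adjusted p = 0.941). Median-of-ratios scaling gave 0.54 for MBTPS2 (adjusted p = 0.00948) and 0.31 for MBTPS1 (adjusted p = 0.0333), both called higher. CREB3L2, an ER-anchored transcription factor related to ATF6, was at 4.62, 5.44 and 4.84 FPKM in mimic samples and 16.7, 3.99 and 14.4 FPKM in NC samples. NC sample 2 lay below all mimic samples while the other NC samples lay far above them (-0.94, SE 0.48, adjusted p = 0.139). Without NC sample 2 the difference was -1.56 and was called lower (adjusted p = 0.000448), the only 1 of 20 alternatives in which it was called.

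In ERAD, of 4 genes that recognise misfolded glycoproteins, EDEM1 and EDEM3, mannosidases that mark such proteins for degradation, fell. That is 50% of these 4, against 39.6% of all genes tested. EDEM1 was at 7.14, 6.51 and 4.92 FPKM in mimic samples and 11.3, 10.4 and 9.12 FPKM in NC samples (-0.70, SE 0.17, adjusted p = 0.00837). EDEM3 was at 5.46, 6.21 and 5.83 FPKM in mimic samples and 9.97, 11.1 and 10.1 FPKM in NC samples (-0.78, SE 0.12, adjusted p = 0.00124). Both were still called lower after median-of-ratios scaling (EDEM1 -0.39, adjusted p = 0.0313; EDEM3 -0.47, adjusted p = 0.0121) but not after GC and length correction (EDEM1 -0.35, adjusted p = 0.0596; EDEM3 -0.21, adjusted p = 0.124). EDEM2, which starts mannose trimming, was at 20.5, 15.0 and 13.1 FPKM in mimic samples and 13.5, 11.8 and 10.1 FPKM in NC samples. Its point estimate was of opposite sign (0.42, SE 0.19, adjusted p = 0.0945) and passed the threshold once scaled by median of ratios (0.74, adjusted p = 0.00612) or without mimic sample 3 (0.56, adjusted p = 0.0476). The ratio of EDEM1 to EDEM2 was 0.349, 0.435 and 0.376 in mimic samples and 0.840, 0.886 and 0.900 in NC samples. OS9, a lectin that delivers substrates to the ubiquitin ligase, ranged from 56.1 to 69.0 FPKM in mimic samples and from 66.0 to 69.9 FPKM in NC samples (-0.13, adjusted p = 0.444).

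Of 7 genes of the retrotranslocation machinery, 6 were tested and HERPUD1 alone fell (16.7%, against 39.6% of all genes tested). HERPUD1, a stress-induced membrane protein that organises the ligase complex, was at 37.8, 45.9 and 58.7 FPKM in mimic samples and 96.6, 80.8 and 75.5 FPKM in NC samples. The groups did not overlap (-0.84, SE 0.19, adjusted p = 0.00615), and the fall was not called after median-of-ratios scaling (-0.51, adjusted p = 0.0658) but was after GC and length correction (-0.61, adjusted p = 0.0406). An annotated gene within a HERPUD1 intron on the same strand, ENSG00000261270, was at 0.849, 0.789 and 0.449 FPKM in mimic samples and 16.15, 16.1 and 17.2 FPKM in NC samples. The authors' strand setting is not given, and how such intronic reads bear on the HERPUD1 value was not tested. Relative to XBP1, HERPUD1 stood at 0.276, 0.355 and 0.556 in mimic samples and 0.973, 0.815 and 0.893 in NC samples. SYVN1, the ubiquitin ligase HRD1, averaged 20.5 ± 4.43 FPKM in mimic samples and 21.7 ± 5.70 FPKM in NC samples, and its partner SEL1L 6.62 ± 1.29 FPKM and 8.15 ± 0.478 FPKM in mimic and NC samples (SD, n = 3 each; adjusted p = 0.809 and 0.151). Without mimic sample 2 SEL1L was called lower (-0.44, adjusted p = 0.0374). VCP, the ATPase that pulls substrates out, averaged 59.6 ± 12.4 FPKM in mimic samples and 63.2 ± 9.36 FPKM in NC samples (adjusted p = 0.704). Derlins form part of the exit channel. DERL1 averaged 12.2 ± 0.723 FPKM in mimic samples and 13.6 ± 1.49 FPKM in NC samples (adjusted p = 0.367). DERL2 was at 32.0, 12.9 and 10.0 FPKM in mimic samples and 17.0, 17.0 and 13.2 FPKM in NC samples, where mimic sample 1 stood alone (adjusted p = 0.937).

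Of the 3 SEC61 channel subunits, SEC61B alone was called on the deposited scale (33.3% lower, against 39.6% of all genes tested). A difference between the subunits was not tested. SEC61B, the small beta subunit, was at 99.1, 65.0 and 57.6 FPKM in mimic samples and 131, 124 and 112 FPKM in NC samples. It fell (-0.76, SE 0.21, adjusted p = 0.0151), without overlap, but was not called after median-of-ratios scaling (-0.44, adjusted p = 0.0686) or GC and length correction (-0.25, adjusted p = 0.213). Leaving out mimic sample 2 also ended the call (adjusted p = 0.0633). SEC61G, the gamma subunit, was at 91.7, 57.9 and 71.0 FPKM in mimic samples and 90.3, 68.6 and 71.6 FPKM in NC samples (-0.08, adjusted p = 0.763). After GC and length correction SEC61G was called higher (0.59, adjusted p = 0.0379). SEC61A1, which forms the pore, was at 57.2, 60.6 and 77.4 FPKM in mimic samples and 105, 63.5 and 33.2 FPKM in NC samples, so the NC samples alone spanned more than the whole mimic range (0.09, SE 0.38, adjusted p = 0.858). The ratio of SEC61B to SEC61G was 1.08, 1.12 and 0.811 in mimic samples and 1.45, 1.81 and 1.57 in NC samples. WFS1, an ER membrane protein that dampens ATF6 signalling, was at 2.51, 2.92 and 3.12 FPKM in mimic samples and 1.54, 3.62 and 1.43 FPKM in NC samples (0.40, adjusted p = 0.271). It was called higher after quantile normalization (1.05, adjusted p = 0.0324) and without NC sample 2, the one NC sample above all mimic samples (0.75, adjusted p = 0.013).

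Members also differed in how well their replicates held together. In 6 of the 39 the coefficient of variation passed 30% in a group, and in each of them 1 or more libraries stood apart: TXNDC5 (75.6%), DERL2 (65.3%) and SDF2L1 (44.0%) in mimic samples, and CREB3L2 (57.9%), WFS1 (56.1%) and SEC61A1 (53.6%) in NC samples. None of these was called with all 6 samples on the deposited scale, and the limma SE of each except SDF2L1 and WFS1 was at least 0.38. The 9 members that fell had a median GC content of 44.4% in their longest transcript, the 3 that rose 53.9%, the 27 not called 50.9% and all genes tested 48.4%. Of the 3 that rose, CALR was at 53.9% and HYOU1 at 55.2%, but CANX, the largest rise, was at 41.6%. Another annotated gene with a mean of at least 1 FPKM in either group overlapped 21 of the 40, 9 of them on the same strand, so parts of those values may be shared.

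Seed matches of miR-27a-3p were looked up for every member in its longest 3' UTR in GENCODE 29. A match of any class was present in 13 of the 40 (32.5%), against 28.9% of 11463 tested genes with a 3' UTR, and an 8mer in 2 (5%), against 6.55%. Among the 9 members that fell, ERN1, ERP44, EDEM3 and DNAJB9 had a match, while EIF2AK3, EDEM1, HERPUD1, HSP90B1 and SEC61B had none. HYOU1, which rose, had one as well. The sites of the called members and of SEC61A1, the other 8mer gene, are shown in the mRNA sense with the match in capitals (ACTGTGAA is the 8mer, ACTGTGA the 7mer-m8 and CTGTGAA the 7mer-A1), coordinates in GRCh38.
ERP44 8mer, chr9:99980709-99980737, minus strand: gtcttctctggACTGTGAAgtcactgagg
SEC61A1 8mer, chr3:128069848-128069876, plus strand: tggcaaaaagaACTGTGAAagtgaaattt
EDEM3 7mer-m8, chr1:184690591-184690619, minus strand: ggaaactatgtACTGTGAtgtaaaagtct
EDEM3 7mer-A1, chr1:184690780-184690808, minus strand: aaaaaaacattCTGTGAAtgaaatattgt
ERN1 7mer-A1, chr17:64040763-64040791, minus strand: tccctgattagCTGTGAAgcaatctagtg
DNAJB9 7mer-A1, chr7:108573412-108573440, plus strand: taaacaattttCTGTGAActattttgaca
HYOU1 7mer-m8, chr11:119044640-119044668, minus strand: atgtgctttctACTGTGAgtccctatccc
The 2 genes with an 8mer, ERP44 and SEC61A1, had log2 fold changes of -0.63 and 0.09. CREB3L2 held the most matches of any member, 2 of the 7mer-m8 and 3 of the 7mer-A1 class, in the longest member 3' UTR (6558 bases). It was not called with all 6 samples. Only 1 of the 20 alternatives called it lower, the one without NC sample 2 (-1.56, limma adjusted p = 0.000448). That sample lay below all mimic samples. Whether the matches bear on its level was not tested.

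Other ER genes outside the 40 were counted by list, and each count is to be read against the 12.0% called higher and 39.6% called lower among all genes tested (26.9% and 27.4% after median-of-ratios scaling). Of 20 genes of the translocon and of signal peptide handling, 4 rose and 3 fell (6 and 1 after median-of-ratios scaling). SRPRB, a subunit of the receptor that docks ribosomes to the ER, was at 39.6, 36.6 and 29.7 FPKM in mimic samples and 17.4, 18.4 and 13.9 FPKM in NC samples (1.07, SE 0.16, adjusted p = 0.00102). SRP72, a protein of the signal recognition particle, rose too (0.87, SE 0.14, adjusted p = 0.00117), while SPCS3, a signal peptidase subunit, fell to 12.2 ± 0.821 FPKM in mimic samples, against 22.5 ± 2.44 FPKM in NC samples (-0.85, SE 0.13, adjusted p = 0.00115). After GC and length correction SPCS3 was not called (-0.26, adjusted p = 0.0662). Of 15 tested genes of N-glycosylation and glycoprotein quality control, none rose and 2 fell on the deposited scale, and 11 were higher and 1 lower after median-of-ratios scaling. The one lower on both scales was UGGT2, a paralog of the folding-sensor glucosyltransferase UGGT1, at 6.11, 8.72 and 5.90 FPKM in mimic samples and 24.2, 19.3 and 22.0 FPKM in NC samples (-1.61, SE 0.18, adjusted p = 0.000216). LMAN1, a cargo receptor for glycoproteins, had a log2 fold change of -0.53 and fell too (SE 0.15, adjusted p = 0.0162), but not after median-of-ratios scaling (-0.21, adjusted p = 0.161) or without NC sample 1 (adjusted p = 0.0571) or NC sample 2 (adjusted p = 0.0579).

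Of 26 other ER redox and folding genes, 1 rose and 7 fell (8 and 5 after median-of-ratios scaling). TMX3, a membrane-bound disulfide isomerase, was at 7.29, 9.20 and 6.31 FPKM in mimic samples and 25.8, 19.8 and 21.6 FPKM in NC samples (-1.51, SE 0.17, adjusted p = 0.000255). FKBP11, an ER prolyl isomerase, fell (-0.99, SE 0.14, adjusted p = 0.000694), and so did ERO1B, an oxidase that recharges disulfide isomerases (-0.89, SE 0.15, adjusted p = 0.00161), though not after quantile normalization (-0.30, adjusted p = 0.0927). Of 23 other ERAD genes, 4 rose and 4 fell (10 and 3 after median-of-ratios scaling). The largest of these falls was in UBE2G2, the ubiquitin-conjugating enzyme that serves ERAD ligases, at 24.1, 27.5 and 23.0 FPKM in mimic samples and 77.1, 80.5 and 81.5 FPKM in NC samples (-1.66, SE 0.13, adjusted p = 5.64e-05). UBXN4, an adaptor of VCP at the ER, fell by 1.04 (SE 0.13, adjusted p = 0.000429) and the membrane ligase gene MARCHF6 by 0.80 (SE 0.15, adjusted p = 0.00237). MARCHF6 was not called after GC and length correction (-0.21, adjusted p = 0.246). The ERAD genes named here are the called ones with the smallest p, and none of the 4 that rose is among them. UGGT2, TMX3, FKBP11, UBE2G2 and UBXN4 were called lower in all 20 alternatives.

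Of 22 genes of the integrated stress response, to which PERK signals, 3 rose and 7 fell (13.6% and 31.8%), near or below the 12.0% and 39.6% of all genes tested, so the counts are no result about the list. After median-of-ratios scaling 8 were higher and 6 lower (36.4% and 27.3%), against 26.9% and 27.4% of all genes. PPP1R15A (GADD34), the stress-induced subunit that removes the phosphate from eIF2alpha, was at 22.0, 21.7 and 20.5 FPKM in mimic samples and 96.2, 100.1 and 104 FPKM in NC samples (-2.20, SE 0.12, adjusted p = 1.58e-05). Its constitutive counterpart PPP1R15B fell as well (-1.08, SE 0.15, adjusted p = 0.000615), and ATF3 was at 9.15, 9.23 and 12.7 FPKM in mimic samples and 282, 283 and 308 FPKM in NC samples (-4.76, SE 0.16, adjusted p = 3.08e-06). PPP1R15A, PPP1R15B and ATF3 were named for having the smallest p among the called genes of this list, and none of the 3 that rose is among them. Of 15 genes of ER-phagy and of COPII, the coat of vesicles that leave the ER, 4 rose and 2 fell (7 and 1 after median-of-ratios scaling). The coat genes SEC24C (0.76, SE 0.17, adjusted p = 0.00594) and SEC23B (0.65, SE 0.16, adjusted p = 0.00832) rose, and RETREG1, an ER-phagy receptor, fell (-0.70, SE 0.17, adjusted p = 0.00987). RETREG1 was not called after GC and length correction (-0.30, adjusted p = 0.105) or quantile normalization (-0.15, adjusted p = 0.436). Of the CREB3 family, 2 of 4 were tested and neither CREB3 (0.49, adjusted p = 0.0615) nor CREB3L4 (-0.44, adjusted p = 0.167) was called. Leaving out mimic sample 3 made CREB3 a higher call (0.67, adjusted p = 0.0157), and leaving out mimic sample 1 made CREB3L4 a lower one (-0.64, adjusted p = 0.046).

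Chaperones of the cytosol were counted as a further list. Of 17 cytosolic chaperone genes 12 rose and none fell (16 and none after median-of-ratios scaling), with a median log2 fold change of 0.79. Over all genes tested 12.0% were called higher, with a median of -0.29. STIP1, which links HSP70 to HSP90, was at 181, 180.2 and 170 FPKM in mimic samples and 59.8, 75.8 and 74.3 FPKM in NC samples (1.34, SE 0.14, adjusted p = 0.000195). HSPB1, a small heat shock protein, was at 911, 904 and 966 FPKM in mimic samples and 387, 384 and 344 FPKM in NC samples (1.32, SE 0.15, adjusted p = 0.000247). HSPA1B rose (1.24, SE 0.14, adjusted p = 0.000287), and its near-identical copy HSPA1A makes the split between the 2 uncertain. The difference between this list and the ER lists was not tested.

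**Figure D5:**
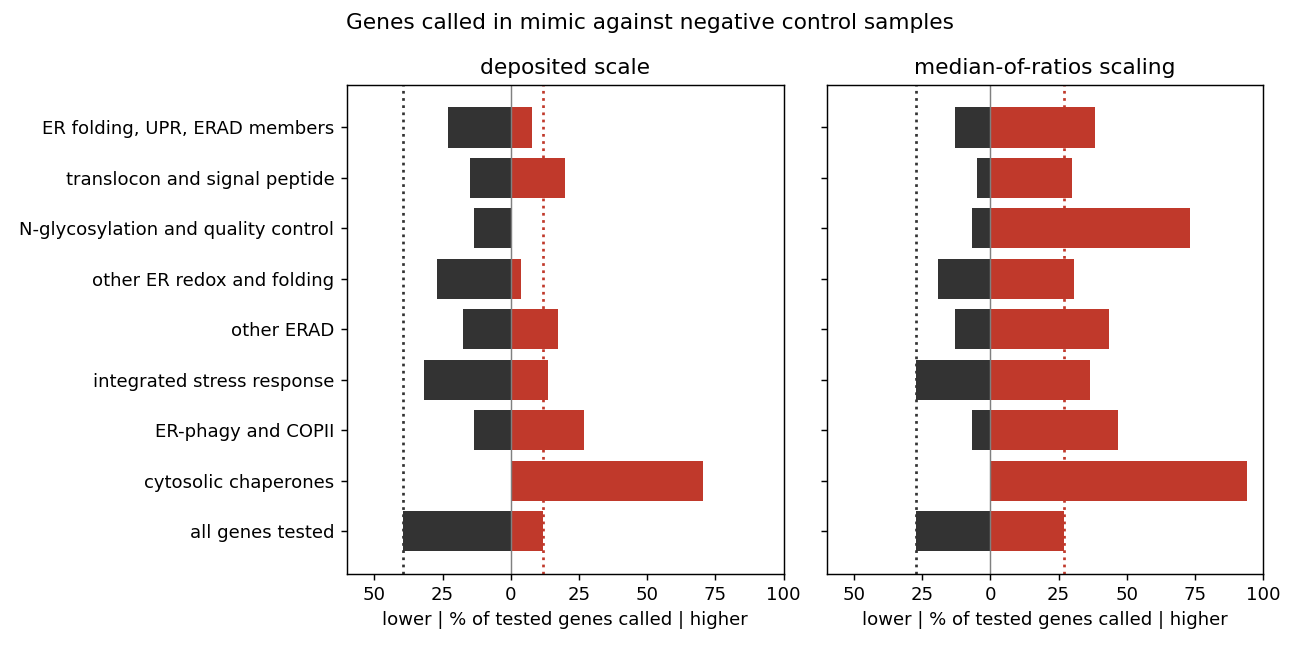
Percent of the tested genes of each list called higher (red, to the right) or lower (dark, to the left) in mimic samples by limma, on the deposited scale (left) and after median-of-ratios scaling (right); dotted lines mark all genes tested. The 40 members have 7.69% higher and 23.1% lower on the left and 38.5% and 12.8% on the right, and the cytosolic chaperones have 70.6% and 94.1% higher and none lower.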

How the data were processed

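Huh-7-labelled cells were compared 48 h after transfection, 3 mimic against 3 NC samples, grouped by title and treatment. The authors deposited FPKM for 58174 genes, per the file headers; FastQC, HISAT2 and hg38 are named in the submitters' processing notes, while the sources used here do not name the quantifier, strand setting or annotation release. The single-sample tables held the same values as the table of the series. Low values were tested for whole multiples of a shared step; 6.58% to 8.02% per sample were whole within 1%, so the deposited values were not turned back into reads and no count model or interval is used.

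Identifiers were matched to current symbols (57392) and to GENCODE 29 (57836), which gave exon length and transcript GC content. Genes whose mean reached 1 FPKM were tested on log2(FPKM + 0.5) with limma-trend and robust moderation (limma 3.58.1, R 4.3.3), without covariates, with Benjamini-Hochberg adjustment over 14439 genes. Log2 fold changes are mimic against NC and understate changes of low genes. The step was tested on simulated data with 200 changed genes, balanced in direction and with no shift in scale between groups. Far more genes were called here, so that test does not bear on how calls depend on the scale. Alternatives were other scalings, pseudocounts, filters, a replicate block, GC and length correction and samples left out.

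All 40 members are named; values per sample are given for members called on either scale and for the main sensors, and up to 3 called genes with the smallest p are named from each further list (2 with the smallest p where none was called). Members and lists were chosen with earlier results of these data known. UTR sites came from GENCODE 29 and promoters and the microRNA from RefSeq.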

Additional observations from a re-analysis of the deposited data

How the results depend on the processing

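The 3 higher and 9 lower calls among the 39 members became 15 and 5 after median-of-ratios scaling, with or without the replicate block. GC and length correction gave 15 and 3, and 14 and 3 with the block. Higher calls numbered 8 after quantile normalization and 8 when the total excluded mitochondrial genes. Leaving out 1 sample gave 2 to 4 higher and 7 to 9 lower calls. Same-numbered samples deviated from their group means with correlations over genes of 0.177, -0.047 and 0.223. Samples 1 and 3 of each group correlated best with their own number, and sample 2 of either group did not. With 3 samples per group this cannot decide whether the numbers pair samples, so fits without and with a replicate block are given. With the replicate block 6 members were called higher and 9 lower. Pseudocounts of 0.1 and 1, the higher filter and moderation without the robust step left both counts at 3 and 9; no filter gave 3 and 8. Without sample 3 of both groups there were 2 and 7. The fitted difference changed sign in at least 1 alternative in 16 members, none of them among the 12 called. In 12 of these it was never called with the other sign; DERL2, for example, ranged from -0.44 to 0.55 and SEC61A1 from -0.47 to 0.49. The other 4 were called higher with the sign turned: TXNDC5 without mimic replicate 2 (0.76; its values ranged from -0.93 to 0.76 with 1 sample left out) and when summed with its read-through gene (0.67, chosen after seeing the data), DNAJB11 after GC and length correction with or without the block (0.36), SEC61G likewise (0.59), and MBTPS1 after median-of-ratios scaling (0.31) and GC and length correction (0.29). The module's share without mitochondrial genes was 0.811% in mimic and 0.719% in NC samples, and its median log2(FPKM + 0.5) was 4.85 in mimic and 4.71 in NC samples. The causes were not tested. Depth cannot be read per gene from FPKM, so low members such as DERL3 and WFS1 carry unknown counting error.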
